A study of Rattus norvegicus with 9 samples.

Results

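These 7 genes belong to corticosteroid signalling and were measured in the dorsal hippocampus of adult rats. They are the receptor genes Nr3c1 and Nr3c2, and 5 genes that glucocorticoids are known to induce, Fkbp5, Sgk1, Per1, Dusp1 and Tsc22d3. They were selected, with earlier results of these data known, by a list of 7 Ensembl gene identifiers, with a mean of at least 1 CPM (reads of a gene per 1000000 reads assigned to genes). All 7 identifiers were among the 32545 in each count file, all 7 passed that minimum, and all 7 were among the 14463 genes tested. Messenger RNA was sequenced from 9 male Sprague-Dawley rats, an outbred laboratory stock, all 8 weeks of age and none used for behavioural tests. In the control group 4 rats had control rearing, and in the other group 5 rats had early-life adversity (ELA), a term for stressful conditions in infancy. The labels name no genotype, drug or acute stressor in either group, and they do not state the form or the days of the adversity, the litters, or the hour at which tissue was taken. The number of rats in each group equals the number of libraries, but whether rats shared a litter is not stated, and p-values measure the spread between these 9 samples.

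Corticosterone, the main glucocorticoid of the rat, enters cells and binds 2 nuclear receptors. The mineralocorticoid receptor, encoded by Nr3c2, is abundant in hippocampal neurons and binds the hormone with high affinity, so that it is largely occupied at rest, whereas the glucocorticoid receptor, encoded by Nr3c1, has lower affinity and is engaged at the daily peak and under stress. The bound receptors move to the nucleus and change the transcription of target genes, among them Fkbp5, whose protein holds the glucocorticoid receptor in a state of low affinity and so closes a short negative feedback loop. Sgk1 encodes a kinase that acts on ion channels and transporters, Tsc22d3 encodes GILZ, a leucine zipper protein with anti-inflammatory actions, Per1 encodes a repressor of the circadian clock, and Dusp1 encodes a phosphatase that inactivates mitogen-activated protein kinases. Per1 and Dusp1 are also induced by neuronal activity and by cyclic AMP signalling.

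The 3 upstream sequences are shown because Fkbp5 and Dusp1 had the strongest relation between 2 of the genes across libraries, in opposite directions, while Tsc22d3 differed little between the groups. They are the 250 bases before a RefSeq start site in the GRCr8 assembly, read 5′ to 3′ on the strand of the gene. Capitals mark every match, on either strand, to the GC box (GGGCGG), the cyclic AMP response element core (TGACG), the complete cyclic AMP response element (TGACGTCA, which contains the core on both strands) and the TATA box (TATAAA).
Fkbp5: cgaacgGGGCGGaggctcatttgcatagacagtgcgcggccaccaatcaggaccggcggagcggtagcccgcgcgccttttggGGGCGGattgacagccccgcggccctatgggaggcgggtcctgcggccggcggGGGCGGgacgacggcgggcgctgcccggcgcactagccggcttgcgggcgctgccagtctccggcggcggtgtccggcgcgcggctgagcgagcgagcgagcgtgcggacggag
Dusp1: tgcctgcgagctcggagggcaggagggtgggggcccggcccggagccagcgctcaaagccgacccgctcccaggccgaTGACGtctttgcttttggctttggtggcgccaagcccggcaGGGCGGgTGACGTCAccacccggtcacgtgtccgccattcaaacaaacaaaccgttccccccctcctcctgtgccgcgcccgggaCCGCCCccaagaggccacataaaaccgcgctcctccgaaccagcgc
Tsc22d3: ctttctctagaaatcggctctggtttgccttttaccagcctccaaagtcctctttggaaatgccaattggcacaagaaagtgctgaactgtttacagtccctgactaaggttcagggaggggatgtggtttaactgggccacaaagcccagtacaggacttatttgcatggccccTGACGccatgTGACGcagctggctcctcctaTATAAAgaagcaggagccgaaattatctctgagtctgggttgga
The Fkbp5 window is chr20:6543556-6543805 on the minus strand, the Dusp1 window chr10:17184603-17184852 on the plus strand and the Tsc22d3 window chrX:109010035-109010284 on the minus strand. The Dusp1 start site is the first base of its gene model, whereas the Fkbp5 and Tsc22d3 start sites lie inside longer gene models. The table gives 3 start sites for Tsc22d3, and the one shown was chosen after its motifs had been seen, as the only one of the 3 with the core or the TATA box. The windows of the other 2, one of them at the edge of the gene model, held GC boxes alone. The Dusp1 window held the complete cyclic AMP response element 124 bases before the start site, a motif found in 1.59% of 33469 RefSeq upstream windows of this length. The Tsc22d3 window shown held 2 copies of its core, at 75 and 65 bases before the start site, and a TATA box at 44 bases. The core occurred in 18.2% of all windows and the TATA box in 12.9%. The Fkbp5 window held 3 GC boxes, a motif present in 30.5% of windows, and none of the others. GC boxes were not particular to it, since the Dusp1 window held 2 and 8 of the 11 windows given for the genes held this motif. Over the 11 upstream windows that the table gives for 6 of the 7 genes, the arm of the glucocorticoid response element (AGAACA) had no match, as did the complete element (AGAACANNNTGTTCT). The arm occurred in 17.5% of all windows and the complete element in 0.012%. These are letter matches within 250 bases of a start site and carry no measurement of binding.

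The libraries held 11049282 to 17089188 reads assigned to genes. Of the 14463 genes tested, 6 passed an adjusted p under 0.05 between the rearing groups (edgeR quasi-likelihood test, Benjamini-Hochberg adjustment over all tested genes). That number depended on the tool and the libraries. It was 142 by DESeq2, which ran on 21318 genes with no filter beforehand and by default leaves genes of low mean count out of its adjustment. By limma-voom with sample weights it was 305, and by edgeR without control replicate 1 it was 130 of 14561. One library, control replicate 1, stood with the ELA libraries on the main axis of variation, the first principal component computed from the 500 genes of highest variance. It scored -5.31 there, against 7.62 to 12.8 in the other controls and -12.3 to 3.64 in the ELA libraries. The rearing differences and the 3 strongest relations between genes are therefore also given without it. The files name no genes, so the hippocampal identity of the tissue was not checked against marker genes.

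None of the 7 genes passed the threshold for a rearing difference. The count was 0 of 7 by edgeR, by DESeq2 and by limma-voom with sample weights, where 0.0415% of all tested genes passed by edgeR, 0.00691% with a higher and 0.0346% with a lower level in ELA rats. The share of all genes that passed was 0.666% by DESeq2 and 2.11% by limma-voom. Shares by DESeq2 are over the 21318 genes with an unadjusted p, which include genes of low level that edgeR and limma-voom left out. Its adjustment left out genes of low mean count, so the 0.666% is over more genes than were adjusted. Adjusted p-values by edgeR ran from 0.356 to 0.982. At an unadjusted p under 0.05 there were 4 of the 7 by each of the 3 tools, Nr3c1 and Dusp1 with lower means and Fkbp5 and Per1 with higher means in ELA rats, against 9.4% of all tested genes by edgeR (4.69% higher and 4.71% lower), 6.12% by DESeq2 and 19% by limma-voom. Without control replicate 1 the counts were again 0 and 4 of the 7, against 0.893% and 13.2% of all genes tested by edgeR. Since the genes were picked with results known, this count is a description. In 0 of the 7 genes were the 2 groups free of overlap, against 3.04% of all tested genes. The median size of the log2 fold change was 0.22 over the 7 genes and 0.08 over all tested genes. Levels are CPM after TMM correction of the library totals. They compare libraries for 1 gene and not genes with each other, since no gene length was used. In whole tissue a lower level can mean fewer cells of a type or less RNA per cell, and these cannot be told apart.

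**Figure D1:**
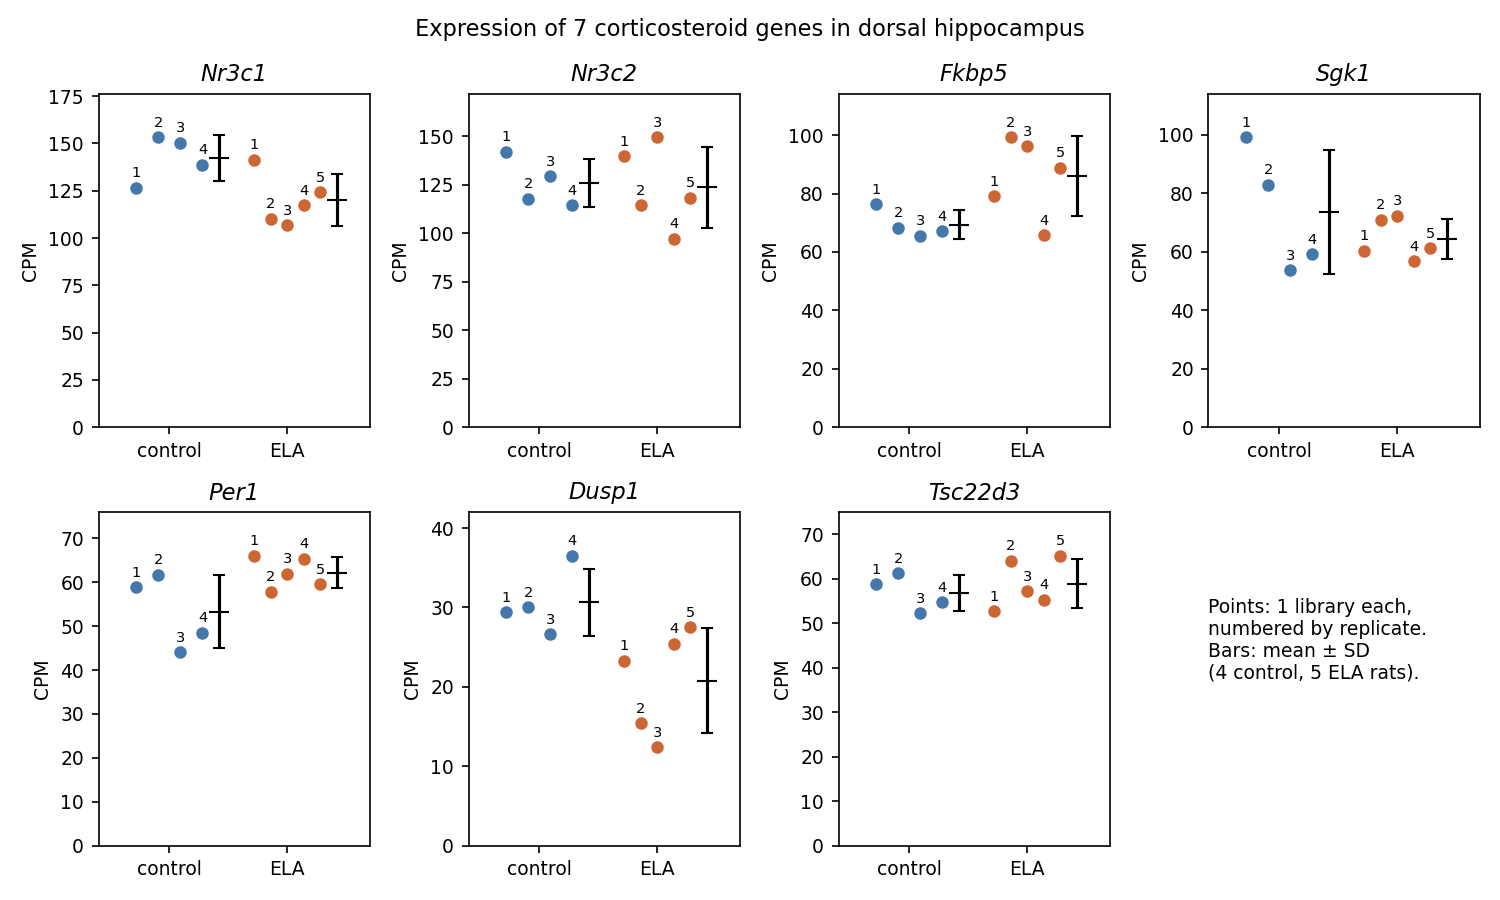
Expression of each gene in CPM (vertical axes from 0, one scale per gene) for the 4 control and 5 ELA libraries; points are libraries numbered by replicate, and bars are the mean and SD. In every panel the 2 groups overlap, with Nr3c1 and Dusp1 below the lowest control and Fkbp5 above the highest control in 4 of 5 ELA libraries.

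The glucocorticoid receptor gene Nr3c1 (ENSRNOG00000014096) had less signal in most ELA libraries. Control replicates 1 to 4 held 127, 153, 150 and 139 CPM, and ELA replicates 1 to 5 held 141, 110, 107, 117 and 124 CPM. In all, 4 of 5 ELA libraries lay below the lowest control, and ELA replicate 1 lay among the controls. The means were 142 ± 12.2 CPM in control and 120 ± 13.7 CPM in ELA rats (SD, n = 4 and 5). The log2 fold change of -0.25 had a standard error of 0.084 and a 95% interval from -0.43 to -0.06, and it did not pass after adjustment over all genes (edgeR, unadjusted p = 0.0126, adjusted p = 0.356). Without control replicate 1, the lowest control, it was -0.30 (edgeR adjusted p = 0.13), and over 19 alternative settings the adjusted p ran from 0.101 to 0.852. The unadjusted p was under 0.05 in 9 of 9 edgeR fits that each left out 1 library.

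The mineralocorticoid receptor gene Nr3c2 (ENSRNOG00000034007) had nearly equal group means. It was at 142, 118, 129 and 114 CPM in control replicates 1 to 4 and at 140, 114, 150, 97.1 and 118 CPM in ELA replicates 1 to 5. The ELA libraries held both the highest and the lowest value of the 9. Means were 126 ± 12.5 and 124 ± 20.9 CPM (SD, n = 4 and 5), with a log2 fold change of -0.02 and a 95% interval from -0.28 to 0.23 (edgeR adjusted p = 0.982). The sign of this value turned without control replicate 1, where it was 0.04.

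The balance of the 2 receptor transcripts was taken as the ratio of Nr3c2 to Nr3c1 reads within a library, which needs no scaling between libraries. The ratio was 1.12, 0.767, 0.861 and 0.823 in control replicates 1 to 4. It was 0.988, 1.04, 1.4, 0.827 and 0.951 in ELA replicates 1 to 5. Control replicates 2 and 4 had the lowest ratios and ELA replicate 3 the highest, while control replicate 1 was second highest. On the log2 scale the means were -0.18 ± 0.24 and 0.04 ± 0.28 (SD, n = 4 and 5), 0.21 apart. Over the 126 assignments of libraries an exact permutation test gave a two-sided p of 0.27. Without control replicate 1 the difference was 0.33 (exact permutation p = 0.0714), and without ELA replicate 3 it was 0.10 (exact permutation p = 0.486).

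**Figure D2:**
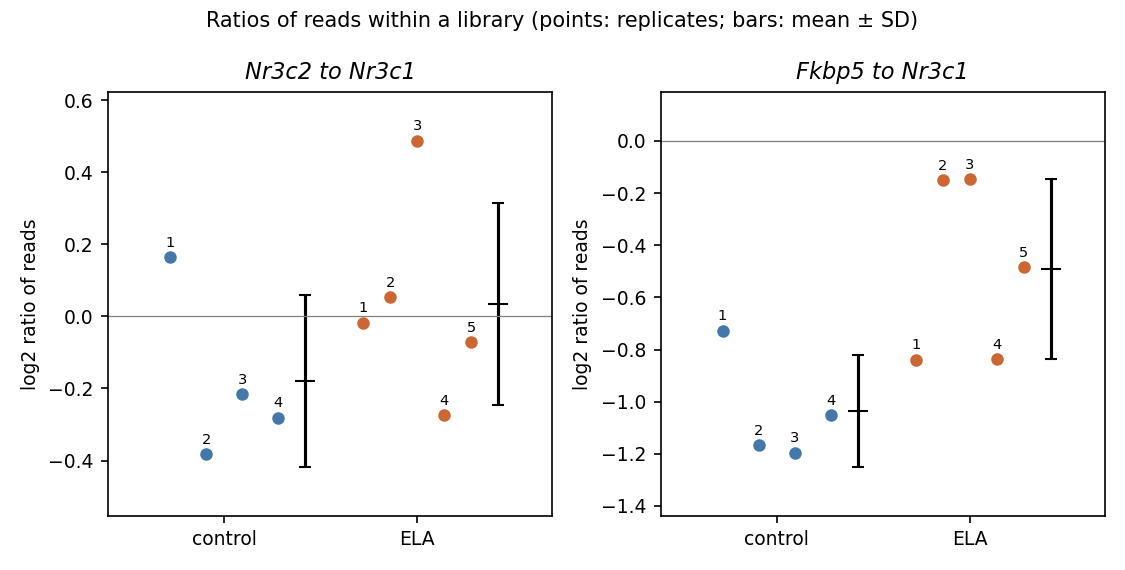
Log2 ratio of reads of Nr3c2 to Nr3c1 (left) and of Fkbp5 to Nr3c1 (right) within each library, for 4 control and 5 ELA rats; points are libraries numbered by replicate, and bars are the mean and SD. Control replicate 1 lies above the other 3 controls in both panels.

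Fkbp5 (ENSRNOG00000022523), the feedback regulator of the glucocorticoid receptor, had more signal in most ELA libraries. It was at 76.4, 68.3, 65.6 and 67.0 CPM in control replicates 1 to 4, and at 79.0, 99.4, 96.3, 65.8 and 88.8 CPM in ELA replicates 1 to 5. In all, 4 of 5 ELA libraries exceeded the highest control, and ELA replicate 4 lay within the controls. The group means were 69.4 ± 4.85 and 85.9 ± 13.7 CPM (SD, n = 4 and 5), a 1.24-fold difference. The log2 fold change of 0.31 had a standard error of 0.11 and a 95% interval from 0.08 to 0.54 (edgeR, unadjusted p = 0.0137, adjusted p = 0.361). Over the 19 alternative settings its adjusted p ran from 0.0561, by limma-voom with sample weights, to 0.851. Limma-voom gave its lowest weight, 0.494, to ELA replicate 4, the ELA library within the controls. Without that library the log2 fold change was 0.39 (edgeR unadjusted p = 0.000295, adjusted p = 0.141). Without control replicate 1 the log2 fold change was 0.36 (edgeR adjusted p = 0.209). The unadjusted p was under 0.05 in 9 of 9 edgeR fits without 1 library. For Fkbp5 the ELA rats spread more widely than the controls, with a coefficient of variation of 16.0% against 7.0%, and this difference in spread was not tested. Sgk1 and Per1 went the other way, with 10.8% in ELA rats against 28.8% in controls and 5.76% against 15.7%. The remaining genes had the larger value in ELA rats. The ratio of Fkbp5 to Nr3c1 reads, chosen after the values had been seen and given with no test, was 0.603, 0.445, 0.437 and 0.483 in control replicates 1 to 4. It was 0.559, 0.901, 0.903, 0.56 and 0.715 in ELA replicates 1 to 5. All ELA libraries lay above control replicates 2, 3 and 4, and control replicate 1 lay inside the ELA range.

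Sgk1 and Tsc22d3, 2 more of the 5 induced genes, gave no such contrast. Sgk1 (ENSRNOG00000011815), the kinase gene, was at 99.3, 83.0, 53.7 and 59.2 CPM in control replicates 1 to 4 and at 60.4, 71.0, 72.4, 56.8 and 61.2 CPM in ELA replicates 1 to 5. The controls fell on both sides of every ELA library, and 2 of them, replicates 1 and 2, were the highest of the 9. The log2 fold change of -0.19 (95% interval -0.57 to 0.18, edgeR adjusted p = 0.807) was -0.02 without control replicate 1. Tsc22d3 (ENSRNOG00000056135), which encodes GILZ, was at 58.8, 61.2, 52.3 and 54.7 CPM in control replicates 1 to 4 and at 52.7, 64.1, 57.2, 55.3 and 65.2 CPM in ELA replicates 1 to 5. Its libraries spanned the narrowest range, as a ratio of highest to lowest, of the 7 genes. The log2 fold change was 0.05, with a 95% interval from -0.11 to 0.22 (edgeR adjusted p = 0.903), and without control replicate 1 it was 0.07. The interval was the narrowest of the 7.

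Dusp1 and Per1, both of which neuronal activity also induces, had group differences of opposite sign, neither past the adjusted threshold. Dusp1 (ENSRNOG00000003977) was at 29.4, 30.0, 26.6 and 36.5 CPM in control replicates 1 to 4 and at 23.3, 15.4, 12.4, 25.4 and 27.5 CPM in ELA replicates 1 to 5, from 181 to 530 reads a library. In all, 4 of 5 ELA libraries were below the lowest control, and ELA replicates 2 and 3 were the lowest of all. Means were 30.7 ± 4.20 and 20.8 ± 6.57 CPM (SD, n = 4 and 5), or 1.48-fold lower in ELA rats, the largest difference in size among the 7. The log2 fold change of -0.57 had a standard error of 0.21 and a 95% interval from -1.04 to -0.09 (edgeR, unadjusted p = 0.0238, adjusted p = 0.426), and its adjusted p over the 19 alternative settings ran from 0.0643 to 0.796. Without control replicate 1 the log2 fold change was -0.59. The unadjusted p was under 0.05 in 8 of 9 edgeR fits without 1 library. The exception was the fit without control replicate 4 (edgeR unadjusted p = 0.0689). The clock gene Per1 (ENSRNOG00000007387) was at 58.8, 61.7, 44.1 and 48.5 CPM in control replicates 1 to 4 and at 66.1, 57.8, 61.9, 65.4 and 59.6 CPM in ELA replicates 1 to 5. Control replicates 3 and 4 were the lowest libraries, and controls 1 and 2 lay among the ELA rats. The log2 fold change of 0.22 (95% interval 0.02 to 0.42, edgeR unadjusted p = 0.032, adjusted p = 0.471) was 0.14 without control replicate 3 (edgeR unadjusted p = 0.119) and 0.27 without control replicate 1. The unadjusted p was under 0.05 in 5 of 9 edgeR fits without 1 library. Since the hour of tissue collection is not in the labels, its part in the Per1 and Dusp1 values was not tested.

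**Figure D3:**
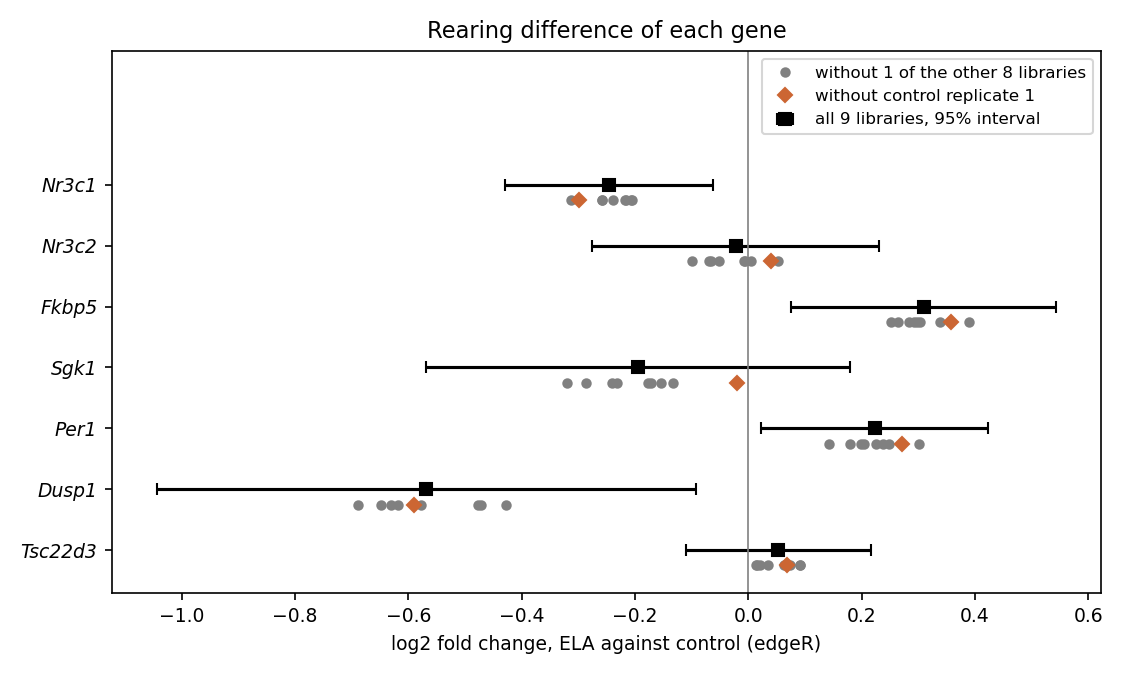
Log2 fold change of each gene, ELA against control, by edgeR (horizontal axis): squares with bars give the value and 95% interval over all 9 libraries, grey points the value without 1 of the other 8 libraries, and diamonds the value without control replicate 1. The intervals of Nr3c1, Dusp1, Fkbp5 and Per1 exclude 0 before adjustment, and Sgk1 moves from -0.19 to -0.02 without control replicate 1.

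The 7 genes differed in how much they varied between rats of 1 group. The biological coefficient of variation, which leaves out counting error, was 22.1% for Dusp1, more than in 95.01% of the tested genes. It was 17.5% for Sgk1, more than in 89.0% of them. In the remaining 5 genes it ran from 8.17% for Tsc22d3 to 12.3% for Nr3c2, against a median of 8.93% over all tested genes. Counting error alone gave at most 7.43% in the library with fewest Dusp1 reads and at most 4.01% in the other 6 genes.

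The genes were then related to each other across the 9 libraries on log2 CPM. Over the 21 pairs, 0 passed an adjusted p under 0.05 for Pearson's r or for Spearman's rho (exact permutation tests, Benjamini-Hochberg over the 21 pairs), and 3 pairs had an unadjusted p under 0.05 for r and 0 for rho. These 3 pairs joined Fkbp5, Dusp1 and Nr3c1. Fkbp5 and Dusp1 ran against each other (r = -0.78, exact permutation p = 0.0099, adjusted p = 0.208; rho = -0.53, exact permutation p = 0.148, adjusted p = 0.516). The libraries with the most Fkbp5, ELA replicates 2 and 3, had the least Dusp1, and without these 2 libraries r was -0.27, so that the relation rests on them. Nr3c1 and Dusp1 ran together (r = 0.73, exact permutation p = 0.0201, adjusted p = 0.212; rho = 0.63, exact permutation p = 0.076, adjusted p = 0.454). Nr3c1 and Fkbp5, the receptor and its inhibitor, ran against each other (r = -0.72, exact permutation p = 0.0355, adjusted p = 0.249; rho = -0.60, exact permutation p = 0.0968, adjusted p = 0.454). With control replicate 2 and ELA replicate 3 left out, the extremes of Nr3c1 around its median, r was 0.57 for Nr3c1 with Dusp1 and -0.59 for Nr3c1 with Fkbp5. With ELA replicates 2 and 3 left out in their place, r was 0.16 and -0.33, so that these relations too rest on those 2 libraries. The p-values above come from shuffles over both rearing groups, so they include the group differences of these genes. With the mean of each rearing group removed the values were -0.62 for Fkbp5 with Dusp1, 0.51 for Nr3c1 with Dusp1 and -0.50 for Nr3c1 with Fkbp5. In that order the exact permutation p was 0.0732, 0.16 and 0.175 and the adjusted p 0.396, 0.399 and 0.399, with no allowance for the removed means. Without control replicate 1 the values of r were -0.79, 0.76 and -0.72 in the same order. Leaving out ELA replicate 4 gave -0.82, 0.78 and -0.92 (exact permutation tests, adjusted p = 0.0911, 0.163 and 0.0521).

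Other genes in these libraries had correlations of this size. Of the other tested genes, 7.31% had an r with Fkbp5 at least as large in size as that of Dusp1, 6.75% had one with Nr3c1 as large as that of Dusp1, and 7.43% had one with Nr3c1 as large as that of Fkbp5. Counted from the other gene of each pair, 4.21% had an r with Dusp1 as large as that of Fkbp5, 7.56% had one with Dusp1 as large as that of Nr3c1, and 12.5% had one with Fkbp5 as large as that of Nr3c1. Among the known glucocorticoid targets, Fkbp5 and Tsc22d3 had the highest r of the remaining 18 pairs (r = 0.58, exact permutation p = 0.103, adjusted p = 0.54; rho = 0.63, exact permutation p = 0.076, adjusted p = 0.454), and it was 0.17 without ELA replicates 2 and 5, the libraries farthest from the median of Tsc22d3. Sgk1 and Tsc22d3 had the largest rho of all pairs (rho = 0.65, exact permutation p = 0.0666, adjusted p = 0.454). Their r was 0.46 (exact permutation p = 0.214, adjusted p = 0.654), and 0.85 without the same 2 libraries. The 2 receptor genes had an r of 0.01 with each other (rho = -0.03, exact permutation p = 0.979 and 0.948, adjusted p = 0.98 and 0.948).

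**Figure D4:**
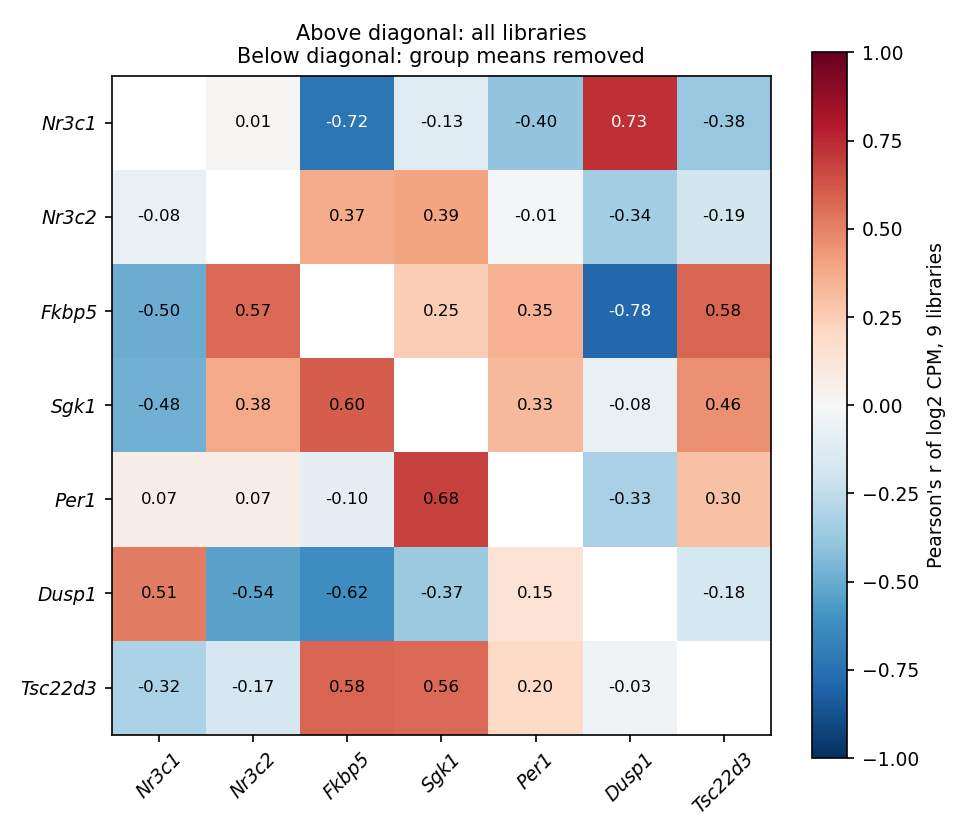
Pearson's r of log2 CPM for each pair of the 7 genes over 9 libraries (colour scale from -1 to 1), above the diagonal as measured and below it with the mean of each rearing group removed. The strongest values above the diagonal join Fkbp5 with Dusp1 (-0.78), Nr3c1 with Dusp1 (0.73) and Nr3c1 with Fkbp5 (-0.72).

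Over the 9 libraries the same 3 genes had the largest r in size, of the 7, with the first principal component. This component held 33.9% of the variance of its 500 genes, with 0 of the 7 among them. Over 28 relations of the 7 genes with 4 library measures, the smallest adjusted p was shared by Fkbp5 (r = -0.88, exact permutation p = 0.00357, adjusted p = 0.04996) and Dusp1 (r = 0.82, exact permutation p = 0.00346, adjusted p = 0.04996). By rank they did not pass (rho = -0.83 and 0.73, exact permutation p = 0.00827 and 0.0311, adjusted p = 0.231 and 0.404). With control replicate 4 and ELA replicate 3, the extremes of the component, left out, r was -0.84 for Fkbp5 and 0.64 for Dusp1. With group means removed, r was -0.78 for Fkbp5, 0.68 for Dusp1 and 0.54 for Nr3c1. It was then -0.81 for Sgk1, -0.73 for Nr3c2, -0.26 for Per1 and -0.28 for Tsc22d3. Within the groups the relation was thus not particular to the 3 genes. With each library left out in turn and the component refitted, r ran from -0.91 to -0.85 for Fkbp5 and from 0.77 to 0.90 for Dusp1, and the adjusted p stayed under 0.05 in 0 and 1 of the 9 exact permutation tests. An r with the component as large in size was found for 3.85% of the other tested genes in the case of Fkbp5 and for 8.29% in that of Dusp1. Nr3c1 had an r of 0.75 (exact permutation p = 0.0262, adjusted p = 0.245; rho = 0.70, exact permutation p = 0.0433, adjusted p = 0.404), and 14.6% of the other tested genes had one as large. On the component control replicates 2 to 4 lay above all 5 ELA rats, and control replicate 1 lay beside ELA replicate 1. Library depth and the shares of reads aligned to several places or outside genes had no relation with any of the 7 genes at an unadjusted p under 0.05 (exact permutation tests).

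**Figure D5:**
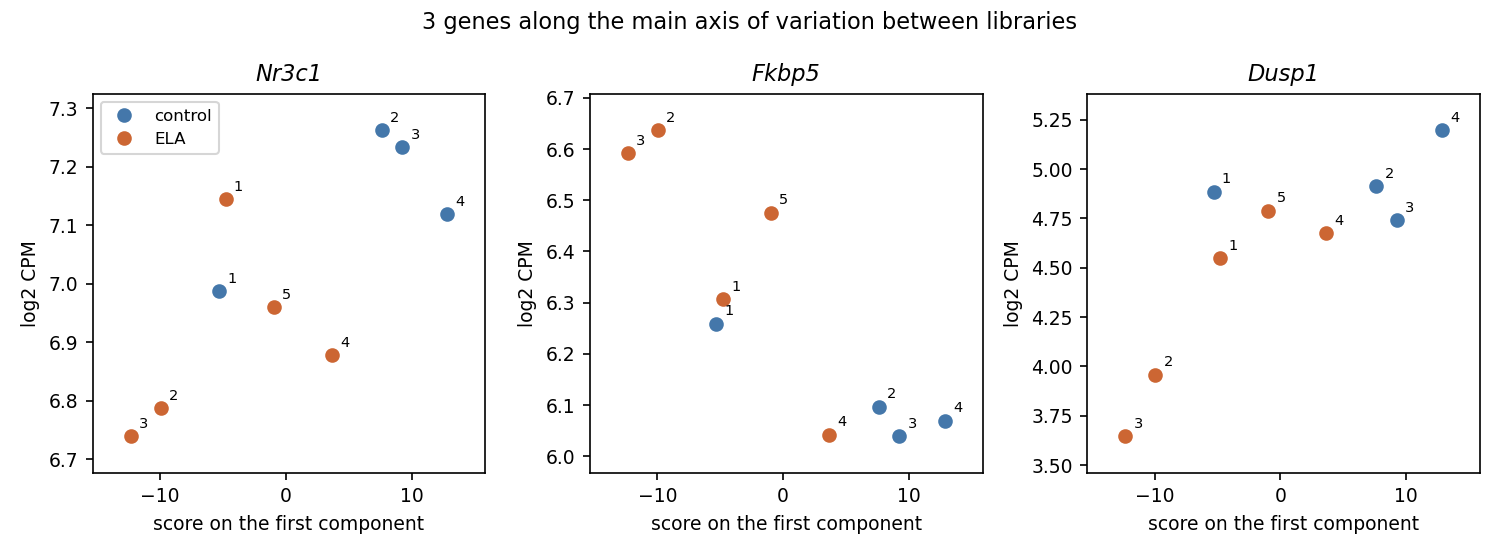
Log2 CPM of Nr3c1, Fkbp5 and Dusp1 (vertical axes) against the score of each library on the first principal component (horizontal axes), with points numbered by replicate and coloured by rearing. ELA replicates 2 and 3 stand at one end, with the highest Fkbp5 and the lowest Nr3c1 and Dusp1, and control replicate 1 stands beside ELA replicate 1 for Fkbp5.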

How the data were processed

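Per the labels' protocols, RNA from a column kit was selected for poly(A) tails and made into TruSeq v2 libraries. The authors deposited raw read counts per Ensembl gene identifier, 1 file per library. Per the submitters' processing notes, alignment used STAR 2.5.0, counting HTSeq 0.6.1 and the genome rn6; the annotation and the strand setting were not among the labels or file headers, so reads of overlapping or antisense genes can be lost or joined. The 5 summary entries of each file, 34.3 to 38.1% of its records, were left out. Groups came from the sample titles. The symbols of the 7 genes came with the list of identifiers. The reference table of 47357 rat genes holds 0 Ensembl identifiers, so the symbols were not checked, and planned lists of other pathway genes, cell type markers and the genes most like Fkbp5 or Nr3c1 by symbol were not run.

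In R 4.3.3, edgeR 4.0.16 kept genes by filterByExpr, scaled by TMM and compared the groups by its quasi-likelihood test in robust mode with the 9 libraries in 1 fit, calling genes with an adjusted p below 0.05. The standard error is the log2 fold change over the root of F. Log2 CPM used a prior count of 2. Exact permutation tests were two-sided. All 7 genes are named, with every value. The members, lists and tests were chosen with earlier results of these data known. The steps were tested on simulated data. Alternatives were other scaling factors, filters and tools (DESeq2 1.42.0, limma 3.58.1), replicate blocks and leaving out each library. No 2 libraries agreed within sampling noise (chi-square per degree of freedom 3.93 to 21.9 over 36 pairs). Upstream sequences are RefSeq's, from GRCr8, whereas the counts used rn6.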

Additional observations from a re-analysis of the deposited data

How the results depend on the processing

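The 7 rearing differences kept their side of the threshold, not passed, under all 19 alternatives, and 6 of them kept their direction. Nr3c2 changed sign with limma-voom with sample weights (0.0396), and over the fits without 1 library it ran from -0.0988 to 0.0526, above 0 without control replicate 1, ELA replicate 2 or ELA replicate 4. The number of the 7 genes with an unadjusted p under 0.05 was 2 to 4 without 1 library, and 2 without control replicate 4. The number of all genes called, 6 in all, was 11 without a filter, 142 by the DESeq2 Wald test, 305 by limma-voom with sample weights, 2 to 130 without 1 library (130 without control replicate 1), 1 with a replicate block by title number and 77 with a replicate block by description number. What the numbers stand for is not in the labels, and deviations from the group means of libraries with the same number correlated at -0.13 to 0.24 by title number and at -0.17 to 0.24 by description number, so the numbers were not taken to pair the libraries. The blocks kept only libraries whose number occurred in both groups. That left out ELA replicate 5 by title number and ELA replicate 1 by description number. Dusp1 had a log2 fold change of -0.72 with the first block and -0.65 with the second (edgeR adjusted p = 0.133 and 0.17). With no block it was -0.57 over all 9 libraries, -0.69 without ELA replicate 5 and -0.62 without ELA replicate 1. Per1 had an edgeR unadjusted p of 0.0619 with the second block, and of 0.0702 with no block and without ELA replicate 1. The difference in the log2 ratio of Nr3c2 to Nr3c1 reads was 0.24 and 0.23 within pairs of equal number, by title and by description (exact permutation p = 0.375 and 0.5, where 4 pairs cannot give less than 0.125). It had the same values with no pairing, 0.24 without ELA replicate 5 and 0.23 without ELA replicate 1. The causes of these changes were not tested. Pairs of the 7 genes past an adjusted p under 0.05 numbered 0 under all 14 alternatives. Other scaling factors moved the median log2 fold change of all genes by -0.0114 at the extreme. Counting error was below the spread between rats in each of the 7 genes.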

Other observations

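In each rearing group the CPM of the 7 genes and the receptor ratio, 16 sets in all, were searched for a library far from the others with Dixon's test, which chance passes in about 1 set of 20, and 0 sets passed. The pairs below were chosen after their values had been seen and carry no test. Removing the mean of each rearing group raised r between Sgk1 and Per1 from 0.33 to 0.68 and between Fkbp5 and Sgk1 from 0.25 to 0.60. Nr3c2 and Fkbp5 likewise went from 0.37 to 0.57. In contrast, Per1 and Nr3c1 went from -0.40 to 0.07. Before the means were removed, r between Sgk1 and Per1 was -0.57 without control replicates 3 and 4, the libraries farthest from the median of Per1.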
